A study of Mus musculus with 6 samples.

Results

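Disease-associated microglia are the state that microglia enter around plaques, dying neurons and demyelinated axons, in which genes for phagocytosis, lysosomal digestion and lipid handling rise while homeostatic genes fall. Full passage into that state is known to depend on the TREM2 receptor and its adaptor TYROBP. Several of its markers are also made at rest, by microglia or by other cells of the brain, so an untreated tissue gives the starting level from which any later change has to be read.

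The 8 genes described here, Lpl, Cd83, Spp1, Lyz2, Igf1, Lgals3bp, Cst7 and Clec7a, were given by name as markers of that state, and were taken as the rows of the deposited table that carry those symbols. All 8 were present, among 15388 genes in all. RNA came from the hippocampus of Cx3cr1-Cre/Ert2+; NuTRAP+ mice (Cx3cr1-cre/ERT2 +/wt; NuTRAP flox/wt) of about 3 months, all given tamoxifen (Tam) to induce the Cre, with no other treatment. The study used males and females, and the labels do not give the sex of each animal. NuTRAP puts a GFP tag on the ribosomes of recombined cells, and in translating ribosome affinity purification (TRAP) the tagged ribosomes are captured on anti-GFP beads to give the Positive fraction, while the Input is the cleared homogenate before capture. Animals 201, 207 and 208 each gave 1 Input and 1 Positive library. The Cre is driven by the Cx3cr1 promoter, which is also active in border macrophages and some blood myeloid cells. The study collected brain tissue of this line some weeks after Tam, so that circulating monocytes would not carry the label. No LPS-treated or diseased animal was analysed here, so the values describe resting tissue and not a response.

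The 6 libraries held between 14879734 and 17757918 reads. The label of the Positive fraction was checked on 14 homeostatic microglial genes, and all 14 were higher there, with a median log2 fold change of 4.69. Genes of oligodendrocytes and of oligodendrocyte precursors were lower in the Positive fraction, 7 of 7 in both lists. Of 7 astrocytic genes 1 was higher and 2 were lower, and of 7 mural genes 0 were higher and 0 lower. Of 7 neuronal genes 1 was higher and 0 were lower, with a median of 0.05. Their summed scaled reads in animals 201, 207 and 208 were 159347, 137996 and 148360 in the Input and 154175, 151775 and 186770 in the Positive fraction. Neuronal RNA thus remained in the Positive fraction, and its part in the levels of the members was not tested. All 7 endothelial genes and all 10 border macrophage genes were also higher, with median log2 fold changes of 1.82 and 3.96. Some border macrophage genes met the read filter, given below, only through the Positive fraction. Their calls were largely set by that filter, so the count and the median are limited by it. Over all 15343 genes tested the median log2 fold change was -0.01.

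The promoters of the 3 members with the largest fold changes and of the only member that fell are shown first, as the 250 bases before the RefSeq start (GRCm38.p6), in the direction of the gene, because the factors that drive microglial genes bind there. Capitals mark GAGGAA, a form of the site bound by PU.1, the myeloid factor that Spi1 encodes. Other forms of the site were not searched, so a promoter without capitals may still hold them.
Clec7a (chr6:129472780-129473029, minus strand): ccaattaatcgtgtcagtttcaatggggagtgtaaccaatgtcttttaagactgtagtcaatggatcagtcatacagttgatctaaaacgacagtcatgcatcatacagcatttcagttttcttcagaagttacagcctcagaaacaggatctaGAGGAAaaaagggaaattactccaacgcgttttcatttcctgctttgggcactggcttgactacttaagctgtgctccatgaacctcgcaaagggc
Cst7 (chr2:150570165-150570414, plus strand): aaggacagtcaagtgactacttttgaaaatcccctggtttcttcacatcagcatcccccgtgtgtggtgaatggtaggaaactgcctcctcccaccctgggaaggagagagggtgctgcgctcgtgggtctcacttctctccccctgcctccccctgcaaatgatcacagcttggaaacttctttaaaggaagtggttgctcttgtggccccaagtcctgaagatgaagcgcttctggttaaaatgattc
Lyz2 (chr10:117282273-117282522, minus strand): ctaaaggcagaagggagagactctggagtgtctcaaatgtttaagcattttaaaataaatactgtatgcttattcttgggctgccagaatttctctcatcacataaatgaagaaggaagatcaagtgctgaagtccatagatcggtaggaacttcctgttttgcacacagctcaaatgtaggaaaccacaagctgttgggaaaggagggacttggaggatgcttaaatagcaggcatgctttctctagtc
Spp1 (chr5:104434861-104435110, plus strand): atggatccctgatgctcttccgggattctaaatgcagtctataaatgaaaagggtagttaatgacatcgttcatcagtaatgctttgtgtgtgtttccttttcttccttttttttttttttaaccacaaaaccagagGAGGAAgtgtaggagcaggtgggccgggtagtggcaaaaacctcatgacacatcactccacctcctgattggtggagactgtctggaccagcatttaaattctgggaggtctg
RefSeq promoters were held for 6 of the 8 members, Lpl and Cd83 being the others. Over the 300 bases from 250 before to 50 after the start, on both strands, GAGGAA was found in 4 of the 6 genes, against 28.3% of all 32851 promoter windows. A gene was counted if any of its windows held the letters, whereas the share is per window, so these differ in unit. Its first base lay 113 bases before the start in Spp1, 96 in Clec7a and 60 in Igf1, and 32 bases after the start in Lgals3bp. Spp1 and Clec7a each have a further RefSeq start, and the further Spp1 window did not hold the letters. No member's window held CACGTG, the E-box of the lysosomal factors MITF, TFEB and TFE3, nor the AP-1 letters TGACTCA, which 7.15% and 5.20% of all windows held. The motif was thus present both in Clec7a, which was the furthest enriched member, and in Spp1, which was lower in the Positive fraction.

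All 8 members passed the test between fractions, and 7 were higher in the Positive fraction while Spp1 was lower. Of all genes tested, 24.0% were called higher and 22.0% were called lower (edgeR quasi-likelihood test, Benjamini-Hochberg adjusted p under 0.05), so a call alone says little, and the size of the change separates the members. Clec7a, Cst7 and Lyz2 were over 5-fold higher, as were 3.75% of all genes. The read filter asked for over 20 scaled reads throughout at least 1 fraction. With 0 to 2 raw Input reads per library, Clec7a and Cst7 met it only through the Positive fraction. Their direction, call and place over 5-fold were therefore largely set by that filter. Lgals3bp, Cd83, Igf1 and Lpl followed with log2 fold changes from 1.76 down to 0.37. The median over the 8 members was 1.58. The members ran from below the lowest of the neuronal genes to above the highest of the homeostatic ones. In bulk samples such as these, a difference in the number of cells of a type and a difference in the RNA each cell holds cannot be told apart.

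**Figure D1:**
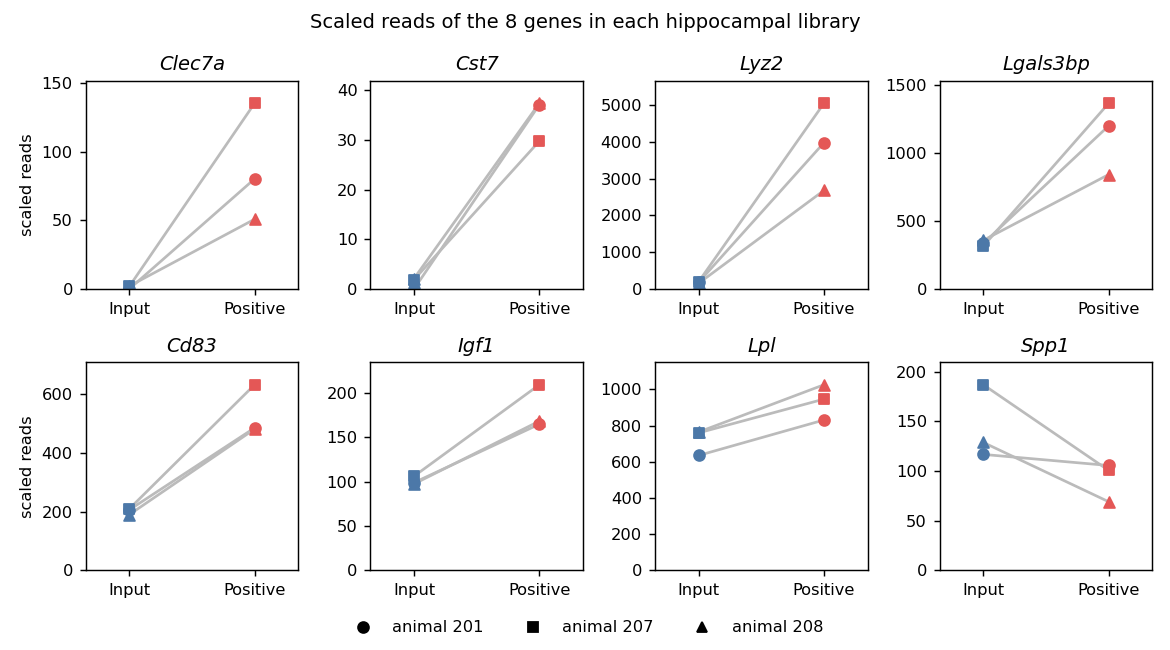
Scaled reads (raw reads divided by the library's size factor) of the 8 members in the Input (blue) and Positive (red) library of each animal, with a grey line joining the libraries of 1 animal and a separate linear axis from 0 for each gene. Clec7a, Cst7 and Lyz2 rise from near the axis, Lpl moves little, and Spp1 is lower in the Positive library of each animal.

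Clec7a encodes Dectin-1, a C-type lectin receptor for beta-glucan that signals in phagocytosis (ENSMUSG00000079293, chr6:129461591-129472779 in mm10, minus strand, annotated in the deposited table as a polymorphic pseudogene). Its raw reads were 0, 2 and 2 in the Input of animals 201, 207 and 208, and 78, 146 and 49 in the Positive fraction. Every Positive library was far above every Input library, and animal 207 was the highest of the Positive libraries. The log2 fold change was 5.94 ± 0.59 (SE, n = 3 per fraction, edgeR adjusted p = 4.1e-06), higher than 99.95% of all genes tested. This call and rank are limited by the read filter, which Clec7a met only through the Positive fraction. Because the Input held 4 reads in all, the ratio is better read from summed reads, 273 against 4, which gives 68.0-fold after scaling, with an exact 95% interval of 26.3 to 251 that covers counting error only. Of the whole read numbers under 60, between 64.7% and 69.3% per library were even, which leaves it unsettled whether both mates of a pair were counted, and with the reads divided by 2 the interval widened to 18.4 to 565.

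The partner genes of Clec7a, which are genes through which Dectin-1 signals and 1 related receptor, were largely enriched with it. Of 8 partner genes, 7 were higher and 1 did not pass, where 24.0% of all genes were called higher. Vav1, an exchange factor for small GTPases of the cytoskeleton, had a log2 fold change of 4.58 ± 0.16, and the kinase Syk, which docks on the receptor's tail, had 3.61 ± 0.20. Plcg2, the phospholipase below Syk, was at 3.38 ± 0.16, and the adaptor Card9 was at 3.35 ± 0.21 (adjusted p at most 4.16e-08 for these 4, edgeR). Clec4n, which encodes the neighbouring lectin Dectin-2, had 4.73 ± 0.45, from 4.03 ± 2.14 to 109 ± 46.4 scaled reads (SD, n = 3 per fraction). Like Clec7a, Clec4n met the read filter only through the Positive fraction, so its call was largely set by that filter. The kinase Prkcd had 1.77 ± 0.17 and Bcl10, the adaptor that Card9 binds, had 0.96 ± 0.13, and the paracaspase Malt1, at 0.13 ± 0.15, did not pass (adjusted p = 0.49).

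Cst7 encodes cystatin F, an inhibitor of lysosomal cysteine proteases, chiefly cathepsin C (ENSMUSG00000068129, chr2:150570415-150578944, plus strand). Its raw reads were 0, 2 and 2 in the Input and 36, 32 and 36 in the Positive fraction. The fractions did not overlap, and the Positive libraries lay close together, with the highest 1.26 times the lowest, against 2.66 times for Clec7a. The log2 fold change was 4.58 ± 0.51 (adjusted p = 1.18e-05), and the ratio of summed reads, 104 against 4, was 25.9-fold with an exact 95% interval of 9.82 to 96.9, or 6.82 to 220 with the reads divided by 2. Cst7 was thus among the genes furthest enriched while having the fewest Positive reads of the 8 members. Like Clec7a, Cst7 met the read filter only through the Positive fraction.

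The proteases and inhibitors around cystatin F were all higher, 6 of 6. The targets gave the wider range: Ctsh had a log2 fold change of 3.72 ± 0.17, Lgmn, or asparaginyl endopeptidase, had 3.27 ± 0.13, cathepsin C (Ctsc) had 2.84 ± 0.19 and Ctsl had 1.63 ± 0.11. The other 2 inhibitors of the family were enriched less than Cst7. Cst3, cystatin C, had 2.31 ± 0.10 from an Input of 12763 scaled reads, and Cstb had 0.43 ± 0.13 (adjusted p = 0.0204), a call that was lost when Input 201, Input 207, Positive 201 or Positive 207 was left out (adjusted p from 0.0529 to 0.0949).

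Lyz2 encodes lysozyme M, the antibacterial enzyme of macrophages and the locus from which myeloid Cre lines are driven (ENSMUSG00000069516, chr10:117277331-117282321, minus strand). Its scaled reads were 183, 200 and 155 in the Input and 3980, 5053 and 2682 in the Positive fraction. No Positive library came near an Input library, and animal 207 was again the highest and animal 208 the lowest. This was a log2 fold change of 4.44 ± 0.21, or 21.7-fold (adjusted p = 2.59e-09). Its partner gene in the lists, the paralog Lyz1, was not in the table. Of the 1275 stretches of 42 bases, the length of a trimmed read, in the Lyz2 transcript, 272 (21.3%) also occur in Lyz1. A single read from these stretches cannot be assigned with certainty, and how many of the read pairs this affected was not tested.

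Clec7a, Lyz2, Lgals3bp and Cd83 shared the order of the animals in the Positive fraction, 207 highest and 208 lowest, with markers of border macrophages and with the homeostatic genes. The summed scaled reads of those 10 genes, which include Mrc1, Cd163, F13a1 and Stab1, ranged from 537 to 610 in the Input and were 7970, 12280 and 6224 in the Positive fraction of animals 201, 207 and 208, so animal 207 was 1.97 times animal 208. The same ratio was 2.66 for Clec7a, 1.88 for Lyz2, 1.62 for Lgals3bp and 1.31 for Cd83, and 0.80 for Cst7. For the summed homeostatic genes it was 1.38. The gene whose pattern over the 6 libraries was most like that of Lyz2 was F13a1, itself a border macrophage marker, at a Euclidean distance of 0.24 on the log2 scale centred on the Input mean, among 12121 genes compared. Inpp5d, which is not on the border macrophage list, was nearly as near, at 0.26. No border macrophage marker was at 0 in the Positive fraction, and the part of these cells in the levels of Clec7a and Lyz2 was not tested. Of the markers of blood cells, 4 of 7 monocyte and 7 of 9 neutrophil markers were not in the table, including Ccr2, S100a8 and S100a9, and the others were divided, with 2 monocyte genes higher and 1 lower, and 1 neutrophil gene higher and 1 lower. Of 4 dendritic cell markers tested, 2 were higher, 1 was lower and 1 did not pass. Some of these blood cell markers met the read filter through 1 fraction only, which limits their calls.

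Lgals3bp encodes a secreted glycoprotein that binds galectins and matrix proteins (ENSMUSG00000033880, chr11:118392751-118402092, minus strand). Scaled reads were 337, 316 and 359 in the Input and 1202, 1368 and 843 in the Positive fraction. The fractions were apart, but the library with the highest Input, animal 208, had the lowest Positive level. The log2 fold change was 1.76 ± 0.15 (adjusted p = 9.71e-07), 3.38-fold. Endothelial genes had nearly the same size of change, and their summed scaled reads in the Positive fraction were 8421, 6806 and 4181, also lowest in animal 208; the part of endothelial RNA in Lgals3bp was not tested. Of its 3 partner galectins only Lgals9 was called, at 3.79 ± 0.15, whereas Lgals1 had 0.34 ± 0.15 (adjusted p = 0.0741, and 0.0193 without Positive 208) and Lgals3, a disease-associated gene itself, had 0.26 ± 0.34 (adjusted p = 0.554) from 28.1 ± 10.5 scaled reads in the Input. Cd9, a tetraspanin of the same disease-associated state, was the second nearest gene to Lgals3bp in pattern, at a distance of 0.19, after Klk8 at 0.11.

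Cd83 encodes an immunoglobulin-like surface protein that keeps MHC class II and CD86 on the surface by opposing the ligase MARCH1 (ENSMUSG00000015396, chr13:43784775-43803132, plus strand). Scaled reads were 206, 210 and 190 in the Input, and 485, 632 and 481 in the Positive fraction. Animals 201 and 208 were close together in the Positive fraction, with animal 207 above them, and all 3 were above every Input library. Cd83 was 2.64-fold higher, with a log2 fold change of 1.40 ± 0.14 (adjusted p = 2.92e-06). All 3 partner genes in the table were higher: the costimulatory ligands Cd86, at 4.28 ± 0.20, and Cd80, at 3.80 ± 0.50, changed more than Cd83, and March1, at 0.87 ± 0.17, changed less. Cd80 met the read filter only through the Positive fraction, so its call was largely set by that filter. Cd40 and Ciita were not in the table. Cd83 is the only member in the microglial list from cell sorting in the study's supplement, whose 238 genes tested had a median of 3.65. In the supplement's list of 142 microglial genes from ribosomal tagging, 0 members were found.

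Igf1 encodes insulin-like growth factor 1, a secreted growth factor made by microglia and by some neurons (ENSMUSG00000020053, chr10:87858265-87937042, plus strand). Scaled reads were 98.9, 106 and 97.4 in the Input and 165, 209 and 168 in the Positive fraction. The Input libraries spanned 8.73 reads, and the fractions did not overlap. Igf1 was 1.79-fold higher, with a log2 fold change of 0.84 ± 0.17 (adjusted p = 0.00117). Igf1 was the only member in the neuronal list of the study's supplement, whose 99 genes tested had a median log2 fold change of -0.01, and an antisense gene, Igf1os, overlaps it, although the counting used strand.

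Of the 12 other genes of the Igf1 system, 1 was higher, 5 were lower and 6 did not pass. The receptor Igf1r had 0.18 ± 0.09 (adjusted p = 0.143), from 1390.5 ± 36.5 to 1571 ± 197 scaled reads (SD, n = 3), and was called without Positive 208 (0.28, adjusted p = 0.00663). The sister ligand Igf2 had -0.99 ± 0.13 and the binding protein Igfbp2 had -1.66 ± 0.12 (adjusted p = 1.36e-07), falling from 1714 ± 76.4 to 540 ± 98.4 scaled reads. Insr, Igf2r and Igfbp6, at -0.26, -0.39 and -0.39, were called lower, but these calls were less stable. Insr lost its call when any library other than Positive 207 was left out (adjusted p from 0.0511 to 0.121). Igf2r lost it without Input 201, Input 208 or Positive 201 (0.0576 to 0.118), and Igfbp6 without any library other than Input 208 (0.0508 to 0.204). With limma on the deposited values all 3 calls were lost (adjusted p = 0.0541, 0.076 and 0.0561). Igfbp7, a binding protein of vessel walls, was the partner that was higher, at 0.96 ± 0.22, beside the endothelial genes described above. Its Positive library of animal 201 stood apart, at 573 scaled reads against 318 and 297, and without it the value was 0.60 (adjusted p = 0.00766).

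Lpl encodes lipoprotein lipase, which frees fatty acids from triglyceride (ENSMUSG00000015568, chr8:68880491-68907448, plus strand). Scaled reads were 635, 760 and 764 in the Input and 831, 946 and 1025 in the Positive fraction. The lowest Positive library was above the highest Input library, by 66.3 reads. The log2 fold change was 0.37 ± 0.11 (adjusted p = 0.0111), 1.30-fold, and it was higher than 79.7% of all genes tested. Without Input 201, the lowest library, the change was 0.29 and the call was lost (adjusted p = 0.0519). Within animals the log2 ratio was between 0.32 and 0.42, the narrowest spread of the 8 members. Of its 4 partners in the table, the protease Pcsk6 fell by 0.78 ± 0.16 on the log2 scale, and the maturation factors Lmf1, at 0.33 ± 0.14, and Sel1l, at 0.05 ± 0.07, and the inhibitor Angptl4, at 0.25 ± 0.33, did not pass. Gpihbp1 and Apoc2 were not in the table.

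Spp1 encodes osteopontin, a secreted phosphoprotein that binds integrins and CD44 (ENSMUSG00000029304, chr5:104435118-104441050, plus strand). Scaled reads were 117, 187 and 129 in the Input and 106, 101 and 69.1 in the Positive fraction. The fractions did not overlap, but Input 201 was only 11.1 reads above Positive 201, and Input 207 stood above the other Input libraries. The log2 fold change was -0.65 ± 0.23 (adjusted p = 0.0325), so the Positive fraction held 63.8% of the Input level. The call was lost without Input 207 (-0.41, adjusted p = 0.189) and without Positive 208 (-0.48, adjusted p = 0.0783), and the Positive library was the lower in 3 of 3 animals. A predicted gene on the same strand, Gm42793, overlaps Spp1 and holds 140 of its 1466 stretches of 42 bases.

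Most receptor genes of osteopontin were higher in the Positive fraction, where the ligand was lower. Of 8 partner genes, 6 were higher, 0 were lower and 2 did not pass. Itgb5, the integrin subunit that pairs with alpha V, had a log2 fold change of 3.36 ± 0.14, from 955 ± 41.3 to 9831 ± 2121 scaled reads, and Itgb3 had 2.86 ± 0.21. Itga5, Itga9 and Itgb1 lay between 1.50 and 2.07, and Itgav, at 0.37 ± 0.11 (adjusted p = 0.0171), lost its call without Input 208 (adjusted p = 0.0827) or Positive 207 (adjusted p = 0.086), and with limma (adjusted p = 0.0662). Itga5 met the read filter only through the Positive fraction, which limits its call. Cd44, at -0.33 ± 0.35 (adjusted p = 0.475), and Itga4, at 0.18 ± 0.14 (adjusted p = 0.299), were the 2 that did not pass.

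**Figure D2:**
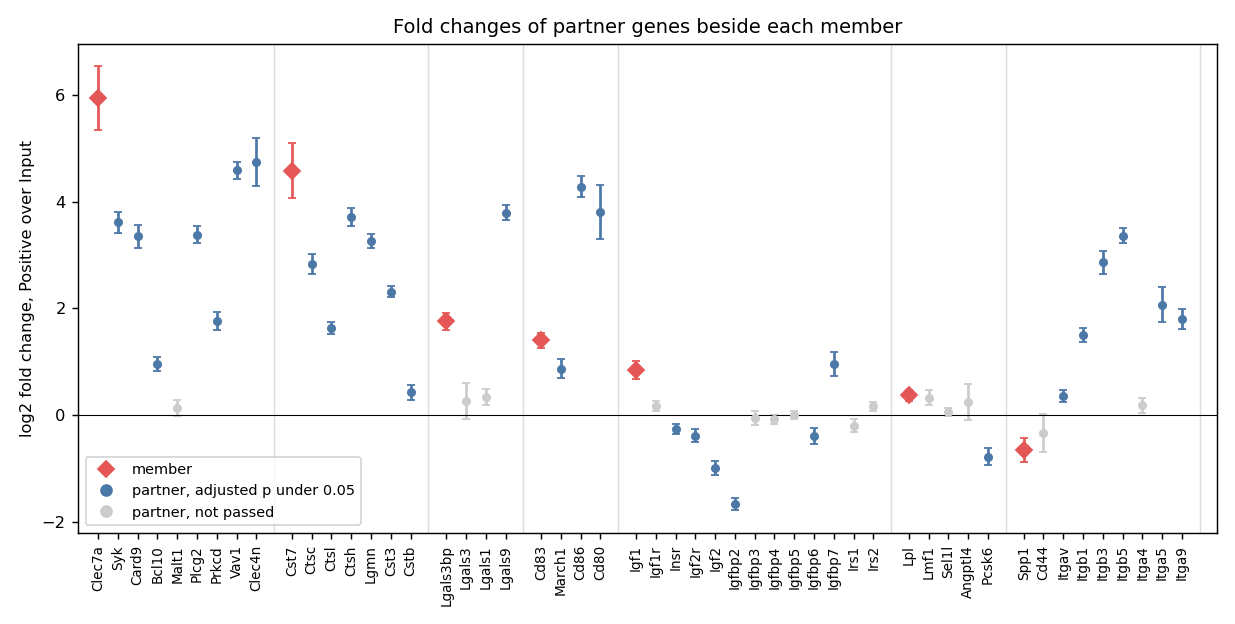
Log2 fold change of Positive over Input, with its SE, for 7 members (red diamonds) and the genes each acts with (circles, blue where adjusted p was under 0.05 and grey where it was not). Spp1 lies below 0 among integrin subunits that lie above it, whereas Igf1 lies above 0 among partners of which 5 are lower.

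Over the 8 partner lists together, 24 of 44 genes tested were higher, 6 were lower and 14 did not pass, with a median log2 fold change of 0.65. The higher genes include Clec4n, Cd80 and Itga5, which met the read filter only through the Positive fraction. By list, the medians were 3.80 for Cd83, 3.36 for Clec7a, 2.57 for Cst7, 1.65 for Spp1, 0.34 for Lgals3bp, 0.15 for Lpl and -0.13 for Igf1. A member and its partners therefore did not always change alike.

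Of 12 transcription factors known to act on microglial and disease-associated genes, 10 were higher, 0 were lower and 2 did not pass, with a median of 0.96. Spi1 (PU.1) had a log2 fold change of 4.79 ± 0.16, Runx1 had 4.41 ± 0.28 and Irf8 had 4.11 ± 0.15, near the homeostatic genes. Runx1 met the read filter only through the Positive fraction, which limits its call. Cebpa, a myeloid factor, had 2.55 ± 0.12. Lower values were found for the factors linked to lysosomal genes, with Tfe3 at 1.06 ± 0.10, Tfeb at 0.87 ± 0.15 and Mitf at 0.31 ± 0.14 (adjusted p = 0.0847, and 0.0424 without Positive 208). Mef2c had 0.78, Cebpb had 0.57 and Bhlhe41 had 0.35, all called, and Bhlhe40, at 0.05 ± 0.09, did not pass.

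The members were next set against the homeostatic genes within each animal. The median log2 ratio of the 14 homeostatic genes was 4.52, 4.88 and 4.42 in animals 201, 207 and 208, with a pseudocount of 1. Lyz2 lay below it in all 3 animals, by 0.08, 0.23 and 0.32. The mean gap was -3.22 for Cd83, -2.88 for Lgals3bp, -3.78 for Igf1, -4.23 for Lpl and -5.25 for Spp1, each below the median in 3 of 3 animals, and the smallest p that an exact two-sided sign-flip test over 3 animals can give is 0.25, which all 6 of these genes reached. Clec7a was above the homeostatic median in animals 201 and 207, by 1.82 and 0.68, and below it by 0.36 in animal 208. Cst7 was above it only in animal 201, by 0.73, the animal whose Input held 0 reads, and below it by 1.47 and 0.79 in the others (exact sign-flip p = 0.5 for both genes). The ratios of Clec7a and Cst7 depended on the pseudocount, since their Input held so few reads. Their means were 5.33 and 4.10 with a pseudocount of 1, 6.76 and 5.52 with 0.1, and 3.81 and 2.66 with 5.

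**Figure D3:**
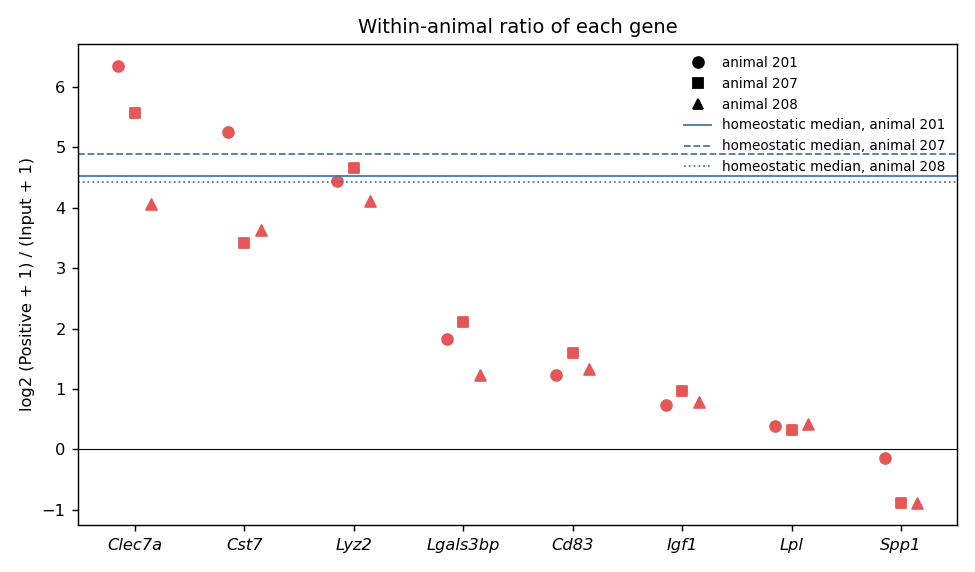
Log2 ratio of scaled reads, Positive over Input with a pseudocount of 1, in each of the 3 animals (symbols) for the 8 members, with blue lines at the median of the 14 homeostatic genes in the same animals. Lyz2 lies just under the lines in each animal, Clec7a and Cst7 scatter around them, and the other 5 genes lie well below.

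The members share their name with 30 further genes of the disease-associated state, of which 28 were in the table, Ccl3 and Ccl4 being the others. Of these, 18 were higher, 2 were lower and 8 did not pass, with a median log2 fold change of 1.51, close to the 1.58 of the members. By level the leading genes were Apoe, Ctsd, Fth1 and Ctsb. The lysosomal proteases Ctsd and Ctsb had 2.70 ± 0.13 and 1.38 ± 0.10. Apoe, the lipid carrier also made by astrocytes, had 0.24 ± 0.13 (adjusted p = 0.141), and its Positive library of animal 208 lay below all 3 Input libraries; without that library Apoe was called, at 0.39 (adjusted p = 0.000547). Fth1, the ferritin heavy chain, was lower, at -1.71 ± 0.09, as was Ank, at -0.28 ± 0.09 (adjusted p = 0.0184), a call lost without Input 207, Input 208 or Positive 201 (adjusted p from 0.0548 to 0.0757) and with limma (adjusted p = 0.0649). The further disease-associated genes thus spread as widely as the members, from -1.71 to 4.89, while 13 of 14 homeostatic genes were over 5-fold higher. The further gene at 4.89, and some others of those called higher, met the read filter only through the Positive fraction. Their calls, and the upper end of that range, were largely set by the filter. Among the homeostatic genes with the most reads, Cst3 had 2.31, Sparc had 2.46 and Csf1r had 4.63.

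**Figure D4:**
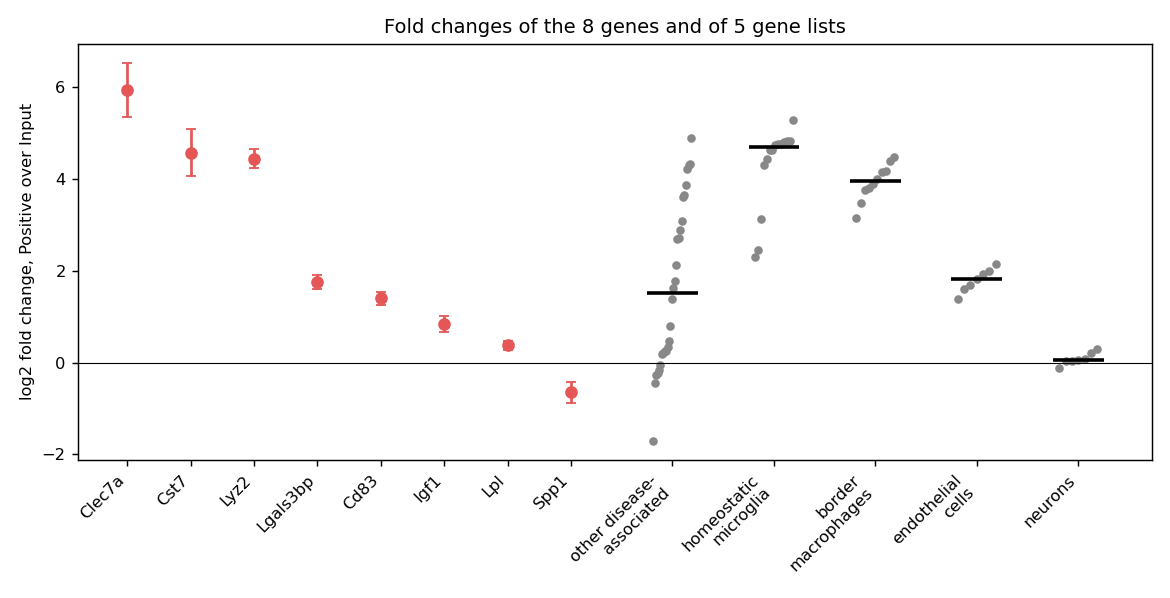
Log2 fold change of Positive over Input for the 8 members (red, with SE) and for single genes of 5 lists (grey points, black line at the list median). The members fall stepwise from 5.94 to -0.65, the further disease-associated genes cover a like range, and the homeostatic genes gather around 4.69.

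Levels were compared between genes as scaled reads per kilobase of summed exon length. In the Positive fraction Lyz2 stood alone at 2967 ± 903 per kilobase (SD, n = 3), within the range of the homeostatic genes, whose means ran from 477 for Sall1 to 49952 for Cst3 with a median of 2546. Lgals3bp was at 400 ± 94.3 and Cd83 at 207 ± 33.4, both below the mean of the lowest homeostatic gene, although with the longest transcript as length Lgals3bp, at 488, was just above it. Lpl followed at 89.1 ± 9.34, Spp1 at 55.7 ± 12.0, Cst7 at 35.2 ± 4.38, Clec7a at 33.7 ± 16.3 and Igf1 at 18.3 ± 2.50. Neighbours in this order did not overlap between libraries, except that Cst7 and Clec7a overlapped, as did Clec7a and Igf1. Clec7a and Cst7, which had the largest fold changes of the 8, were thus above only 24.2% and 25.1% of all genes in level in the Positive fraction, and Lyz2 was above 99.1%. With the length of the longest transcript instead, Lpl rose to 227 per kilobase and stood above Cd83, at 215, and Igf1 rose to 25.6, because the annotated exons of both genes sum to more than any 1 transcript.

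In the Input the order was different. Lyz2, at 136 ± 17.3 per kilobase, Lgals3bp, at 118 ± 7.46, Spp1, at 87.4 ± 22.7, and Cd83, at 78.5 ± 4.09, each overlapped their neighbour. Lpl was below them at 68.7 ± 7.00 and Igf1 at 10.2 ± 0.47. Cst7 and Clec7a were last, at 1.34 ± 1.17 and 0.50 ± 0.44, where 0 to 2 reads per library set the value. By summed exon length Spp1 was the third member in the Input and the fifth in the Positive fraction. With the longest transcript as length, Lpl led the Input at 175 per kilobase.

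**Figure D5:**
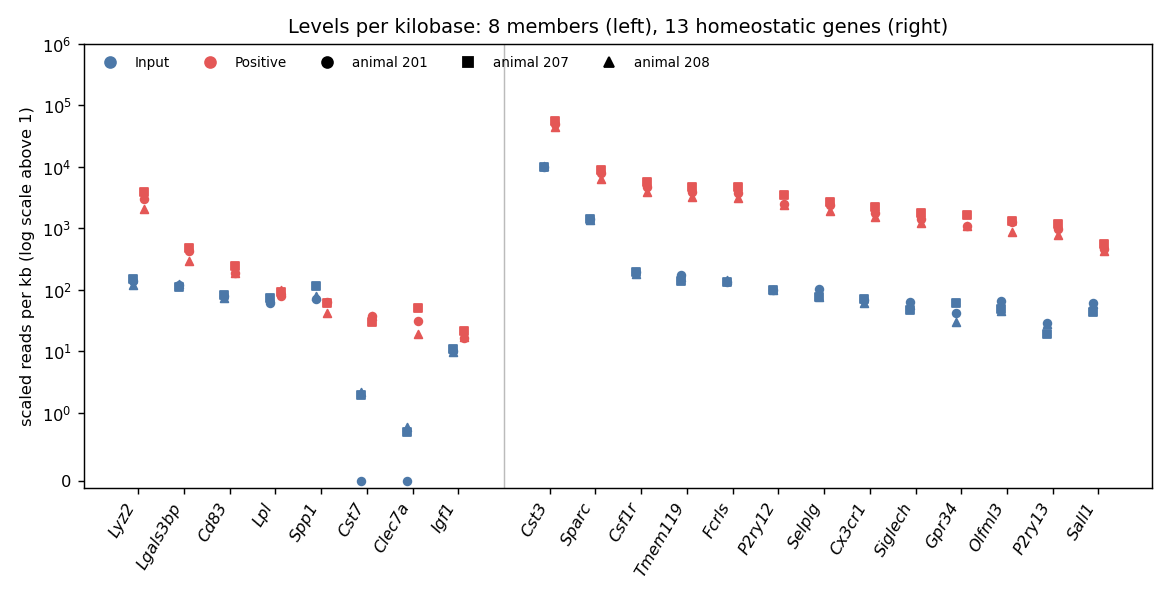
Scaled reads per kilobase in each library, Input in blue and Positive in red, for the 8 members on the left and 13 of the 14 homeostatic genes on the right (1 is not shown), each ordered by the Positive mean, on an axis that is linear below 1 and logarithmic above. Lyz2 reaches the homeostatic genes, and the other 7 members have lower Positive means than all 13 shown.

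The genes whose pattern was most like each of the remaining members, among genes of at least 100 mean scaled reads, were Naip2 and Was for Clec7a, at distances of 1.41 and 1.43, and Ccl9 and Grap for Cst7, at 0.74 and 0.86. The second for Lyz2 was Inpp5d at 0.26. For Cd83 they were Rassf3 and Fez2, at 0.16 and 0.17, for Igf1 Gpr137b-ps and Nrip1, at 0.10 and 0.12, for Lpl Fen1 and Gpd2, both at 0.10, and for Spp1 Dffb and Gm4117, at 0.30 and 0.31. The distances of Clec7a and Cst7 were longer than those of the other members, whose Input level rested on more reads.

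Genes of early response to handling were checked because they can rise while fresh tissue is worked up. Of 10 tested, 6 were higher, 1 was lower and 3 did not pass, where 24.0% of all genes were called higher. Their median log2 fold change was 0.34, and single genes ran from -0.70 to 1.97. Tnf and Il1b were not in the table. Their summed scaled reads ranged from 7023 to 7567 in the Input and from 7909 to 9246 in the Positive fraction. The part of handling in the levels of the members was not tested. Interneuron genes were mixed, with 4 of 8 higher, 2 lower and 2 not passed.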

How the data were processed

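RNA was measured in 6 hippocampal libraries, grouped by the fraction label. The authors trimmed and aligned directional paired reads to mm10 in Strand NGS and deposited expected counts (estimated counts, not always whole) for 15388 genes, with DESeq-normalized values on a log2 scale. Genes below their read filter were not analysed here. No comparison columns of the authors were used, and 0 per-sample columns were left unmapped.

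Expected counts were rounded and tested with edgeR 4.0.16 (R 4.3.3; glmQLFit, glmQLFTest) under median-of-ratios (RLE) scaling, unpaired as in the study, for genes whose scaled reads exceeded 20 throughout at least 1 fraction. P-values were Benjamini-Hochberg adjusted over all 15343 genes, and SE is the log2 fold change divided by the square root of F. Reads carry no molecular identifiers, so intervals cover counting error only. limma 3.58.1 and DESeq2 1.42.0 were alternatives, and the main test was tested on simulated data.

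Same-numbered libraries come from the same animal per the labels. Their deviations from the fraction means correlated at 0.28, 0.07 and 0.17 in animals 201, 207 and 208, over 11948 genes.

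The members and all gene lists were chosen with earlier results of these data known. Named genes were all members, their partners and regulators, the 4 genes with most reads and up to 3 genes called against the median of the disease-associated, homeostatic and border macrophage lists, and the 2 genes nearest to each member. Other lists are given by their counts. A few genes of these lists are not named here, though they stay in the counts.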

Additional observations from a re-analysis of the deposited data

How the results depend on the processing

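All 8 members were called under TMM, total count and the authors' size factors, with DESeq2, and with no filter beyond the authors' own. All 8 were also called with reads divided by 2, an alternative chosen after seeing the data. A filter of 100 scaled reads left Cst7 and Clec7a untested and called the other 6. With limma on the deposited log2 values 6 were called, without Lpl (0.36, adjusted p = 0.0599) and Spp1 (-0.66, adjusted p = 0.0528). Under limma 26 of the partner genes were called. Leaving out 1 library at a time gave 7 or 8. With the animal as a block in a paired fit, 8 members, 14 homeostatic genes, 21 further disease-associated genes, 30 partner genes and 7567 genes in all were called, against 8, 14, 20, 30 and 7053, and the block changed no member's call.

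Member fold changes kept their direction in 118 of 118 refits and their side of the threshold in 113. These include 14 refits each of Clec7a and Cst7, whose direction and call were largely set by the read filter. The refits reused the same libraries, so they describe the processing and add no animals. Total count scaling moved the split of all calls from 3684 higher and 3369 lower to 3048 and 4281, with Lpl at 0.30 and Spp1 at -0.72. Signs that turned belonged to genes that did not pass. Under total count these were Sel1l (-0.0236), Igfbp5 (-0.0725) and Bhlhe40 (-0.0224), and Igfbp5 also under the authors' size factors (-0.0121) and limma (-0.0115). With 1 library left out, Igfbp5 ranged from -0.0535 to 0.0477, Igfbp3 from -0.11 to 0.0506, Angptl4 from -0.114 to 0.479, Cd44 from -0.67 to 0.022, Lgals3 from -0.0074 to 0.533 and Bhlhe40 from -0.0199 to 0.127. Depth limits Clec7a and Cst7 most, with 4 Input reads each, and 3 animals limit Spp1 and Lpl.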
